A study of Mus musculus with 2 samples.

Results

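Caspases and the proteins that hold them in check were examined in mouse CD8+ T cells. With earlier results of these data known, 8 genes were chosen by name: Casp1, Casp4, Casp6, Casp8, Cflar, Xiap, Birc2 and Birc3. A probe was taken where the platform's annotation gave exactly 1 gene symbol, equal to one of these names, and where both arrays held a value. All 8 genes were found, on 11 probes of the 21427 with both values, with 2 probes each for Cflar, Birc2 and Birc3 and 1 probe for each of the other 5. The Entrez identifier of all 11 probes led to the same symbol in the RefSeq gene table. The cells were effector CD8+ T cells of a pmel transgenic mouse, whose T cell receptor recognises a peptide of the melanocyte protein gp100, after 2 stimulations in culture (channel 2) and after 1 (channel 1), which the sample descriptions call rounds of restimulation. Total RNA of both stages was hybridised together on each of 2 two-colour arrays, the second labelled a repeat, and all cells carry the transgene. The sources used here state no strain, age, transgene promoter or culture agent. Nothing in the labels says whether the repeat came from a separate culture, so every error and p-value below measures how far 2 arrays differ and may reflect technical spread alone.

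Each probe has a log ratio between the channels per array, taken as base 2. The sources used here state neither the dyes, the numerator nor the log base. Whether the repeat swapped the dyes is thus unknown, so agreement between arrays cannot separate stimulation from a dye effect on a probe. The cells after 1 stimulation come first in the titles and the channel numbers, so that a positive value likely means less RNA after 2 stimulations than after 1, on that order alone. Members are accordingly described as positive or negative, and if the values were natural logs every fold below would be larger. A lower RNA share per cell and fewer cells of a type cannot be told apart in such bulk RNA. With ratios alone, no level of a gene is known, so the presence of T cell markers could be read only as ratios.

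Caspases are cysteine proteases that are made as inactive precursors and cut other proteins after aspartate. Initiator caspases such as the product of Casp8 are switched on at death receptors, effector caspases such as that of Casp6 take the cell apart, and the inflammatory caspases of Casp1 and Casp4 act on cytokine precursors and on membrane pore proteins. Cflar encodes c-FLIP, a relative of caspase-8 without protease activity that competes with it, and the inhibitor of apoptosis proteins (IAPs) of Xiap, Birc2 and Birc3 carry BIR domains; XIAP binds active caspases directly, while both cIAPs act mostly as ubiquitin ligases in TNF receptor signalling. In T cells these genes govern the death of activated cells after a response, and caspase-8 is also needed for clonal expansion.

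The inflammatory caspase genes Casp4 and Casp1 and the effector caspase gene Casp6 lay on the positive side of the ratio on both arrays, and the initiator caspase gene Casp8 lay on the negative side. Among the inhibitors, Birc2 and Birc3 were positive, Xiap was negative and the Cflar probes disagreed. With 1 value per gene (the mean of its probes), 5 of 8 members were positive on both arrays, against 29.6% of all 14150 genes. Negative on both were 2 of 8, against 33.6%. Since the members were chosen with earlier results known, no test of these counts was run. The median of the 8 genes was 0.295 (0.297 on array 1 and 0.398 on array 2), or 0.455 over the 11 probes, and the median of all genes was -0.02. No member probe reached a ratio 2-fold from 1 on both arrays, a size that 0.854% of all probes reached on the same side. In limma's moderated test, 0 of the 11 probes had an adjusted p under 0.05, as had 0% of the 21427 probes tested. Members' adjusted p-values ran between 0.182 and 0.915, and the smallest over all probes was 0.162. At an unadjusted p under 0.05 there were 5 member probes on the positive side, where 6.87% of all probes stood, and 2 on the negative side, where 8.0% stood. The members are therefore described by their values and by how closely the arrays matched, and none is called changed.

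**Figure D1:**
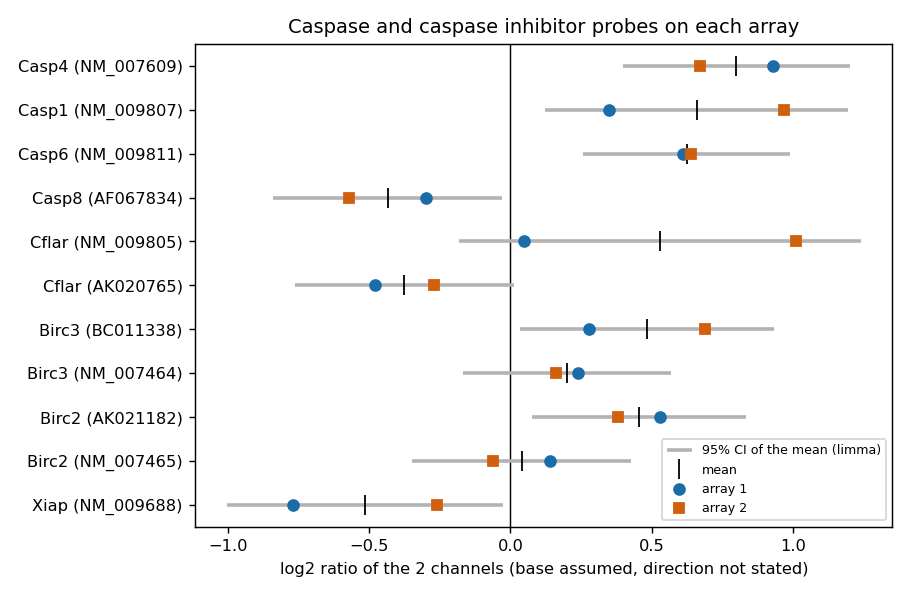
Log2 ratio of each of the 11 member probes (rows, with the annotated transcript) on array 1 (circles) and array 2 (squares), with the mean (tick) and limma's 95% confidence interval (bar, n = 2 arrays). The bars of Casp4, Casp1, Casp6, Casp8, Xiap and 1 probe each of Birc2 and Birc3 leave out 0, before any adjustment for the 21427 probes tested.

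Casp4 stood farthest from 0 of the members. This gene encodes mouse caspase-11, which senses bacterial lipopolysaccharide in the cytosol. Its probe (annotated to NM_007609) read 0.93 on array 1 and 0.67 on array 2, a mean of 0.80 ± 0.18 (SD, n = 2) or 1.74-fold. Both arrays put it above 0, and the limma interval, before any adjustment, was 0.40 to 1.20 (limma adjusted p = 0.182). Only 4.26% of all probes had a mean farther from 0 on either side. Casp1, the gene of the protease that matures interleukin-1 beta, read 0.35 and 0.97 on arrays 1 and 2 (NM_009807). Its mean of 0.66 ± 0.44 (SD, n = 2) was thus less even than that of Casp4, and the limma interval was 0.12 to 1.20 (adjusted p = 0.279). Casp4 was the higher of the pair by 0.58 on array 1 and lower by 0.30 on array 2, so the order of their ratios was not settled.

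Casp6 encodes an effector caspase known for cutting nuclear lamins. It gave almost the same ratio on each array, 0.61 and 0.64 (NM_009811), a mean of 0.625 ± 0.02 (SD, n = 2) or 1.54-fold with an adjusted p of 0.203 in limma. Casp4 and Casp6 were the 2 member probes at least 1.5-fold from 1 on both arrays, a size met on the positive side by 1.74% of all probes. Below 0, 0 member probes were of that size, against 2.37% of all probes.

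Casp8 ran the other way. Its probe (AF067834) read -0.30 and -0.57 on arrays 1 and 2, with a mean of -0.435 ± 0.19 (SD, n = 2), a limma interval of -0.84 to -0.03 and an adjusted p of 0.311. Both arrays lay below 0, and 15.4% of all probes had a mean farther from 0. The gap between Casp4 and Casp8, a difference of log ratios within an array that was chosen after its values were seen, was 1.23 and 1.24 on arrays 1 and 2. For Casp6 minus Casp8 it was 0.91 and 1.21, and for Casp1 minus Casp8 0.65 and 1.54. On each array the Casp8 probe thus lay below those of Casp4, Casp6 and Casp1. That order follows from the signs of the probes and adds nothing to them.

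Casp1 and Casp4 lie side by side on chromosome 9 of the mouse in the RefSeq gene table, with 0 coding genes between them. Casp12, a relative of the inflammatory caspases, follows as the next coding gene after Casp4. Unlike its neighbours it read 0.09 and -0.29 on arrays 1 and 2. The stretches before the annotated starts of the 4 member caspases are shown as sequence only, and their part in the ratios was not tested. Each has the 250 bases upstream of the start, from RefSeq's GRCm38.p6 table, on the plus strand, at chr9:5308599-5308848 for Casp4, chr9:5298267-5298516 for Casp1, chr3:129901165-129901414 for Casp6 and chr1:58802252-58802501 for Casp8. Capitals mark matches on either strand to the consensus of NF-kB, a transcription factor of T cell activation and TNF signalling.
Casp4: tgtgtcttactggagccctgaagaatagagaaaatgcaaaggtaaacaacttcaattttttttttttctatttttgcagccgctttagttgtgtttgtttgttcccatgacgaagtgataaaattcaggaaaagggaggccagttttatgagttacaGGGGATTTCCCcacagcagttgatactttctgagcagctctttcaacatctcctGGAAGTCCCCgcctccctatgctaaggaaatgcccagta
Casp1: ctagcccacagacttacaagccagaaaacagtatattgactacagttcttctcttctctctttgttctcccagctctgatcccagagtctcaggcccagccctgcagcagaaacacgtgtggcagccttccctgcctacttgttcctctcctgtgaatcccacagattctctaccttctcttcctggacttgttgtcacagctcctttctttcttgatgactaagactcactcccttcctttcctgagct
Casp6: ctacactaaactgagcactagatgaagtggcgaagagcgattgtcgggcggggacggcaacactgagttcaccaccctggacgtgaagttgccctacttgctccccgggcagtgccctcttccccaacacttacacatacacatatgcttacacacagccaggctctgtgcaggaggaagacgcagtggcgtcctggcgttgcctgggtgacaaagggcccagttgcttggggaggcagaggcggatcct
Casp8: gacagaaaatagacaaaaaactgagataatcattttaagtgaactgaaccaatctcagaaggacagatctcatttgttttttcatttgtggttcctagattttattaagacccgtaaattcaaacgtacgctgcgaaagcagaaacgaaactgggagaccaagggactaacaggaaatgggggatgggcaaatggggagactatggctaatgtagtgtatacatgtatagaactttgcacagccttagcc

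The Casp4 stretch held 3 matches to the NF-kB consensus: GGGGATTTCC from 93 to 84 bases before the start, GGGATTTCCC overlapping it from 92 to 83, and GGAAGTCCCC, on the opposite strand, from 39 to 30. A second Casp4 start in the table gives an overlapping stretch with the same matches. Of 32851 such stretches in the table, 7.25% held at least 1 match. The other 10 stretches listed for member genes, those of Casp1, Casp6, Casp8, Birc3 and Cflar, both of Birc2 and all 3 of Xiap, held no match. Neither the core of the interferon-stimulated response element (GAAANNGAAA, in 2.98% of stretches) nor the gamma-activated site (TTCNNNGAA, in 7.02%) was found on either strand in any member stretch. A match describes the sequence and does not show binding.

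**Figure D2:**
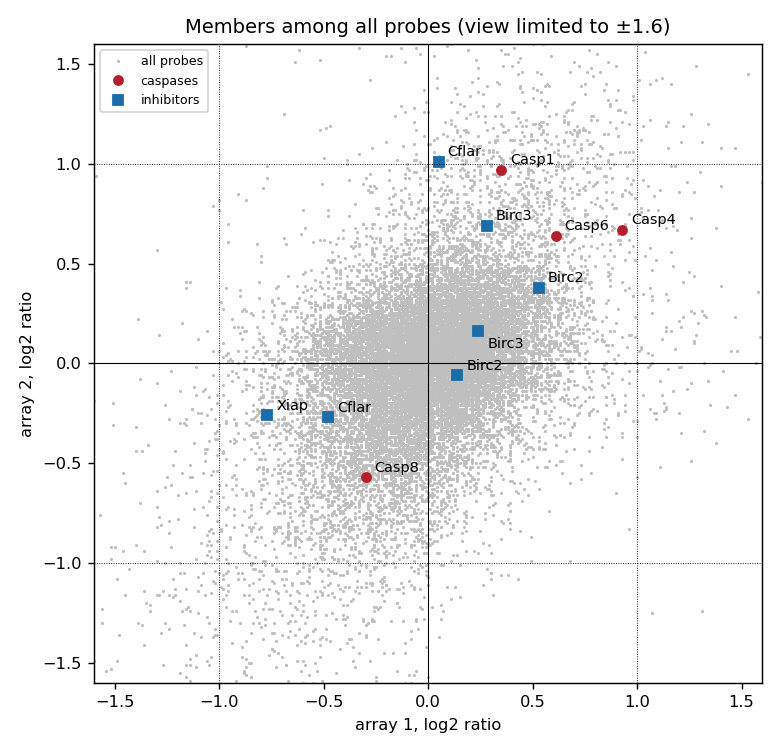
Log2 ratio on array 1 (x axis) against array 2 (y axis) for all probes (grey, view limited to values within 1.6 of 0) and for the caspases (circles) and inhibitors (squares). Casp4, Casp1 and Casp6 sit at the upper right, Casp8 and Xiap at the lower left, and the 2 Cflar probes on opposite sides of 0; dotted lines mark 2-fold.

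Cflar, the gene of the caspase-8 decoy, had 2 probes that pointed opposite ways. The probe annotated to NM_009805 read 0.05 and 1.01 on arrays 1 and 2 (mean 0.53 ± 0.68, SD, n = 2, limma adjusted p = 0.43), the widest gap between arrays of any member. The other, annotated to the cDNA clone AK020765, read -0.48 and -0.27 (mean -0.375 ± 0.15, SD, n = 2, limma adjusted p = 0.346). Their means lay 0.905 apart. Among the 846 genes with 2 probes the median distance was 0.255, and 5.08% had one at least as wide as that of Cflar. Which transcripts each probe reads was not tested, and the mean of both probes that enters the counts and the median over 8 genes, -0.215 on array 1 and 0.37 on array 2, describes neither of them. Set against caspase-8, the NM_009805 probe stood above Casp8 by 0.35 and 1.58 on arrays 1 and 2, while the AK020765 probe differed from Casp8 by -0.18 and 0.30. The difference between Cflar and Casp8 thus kept its sign over the arrays with 1 probe and not with the other. Cflar and Casp8 are neighbours on chromosome 1, with 0 coding genes between them.

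**Figure D3:**
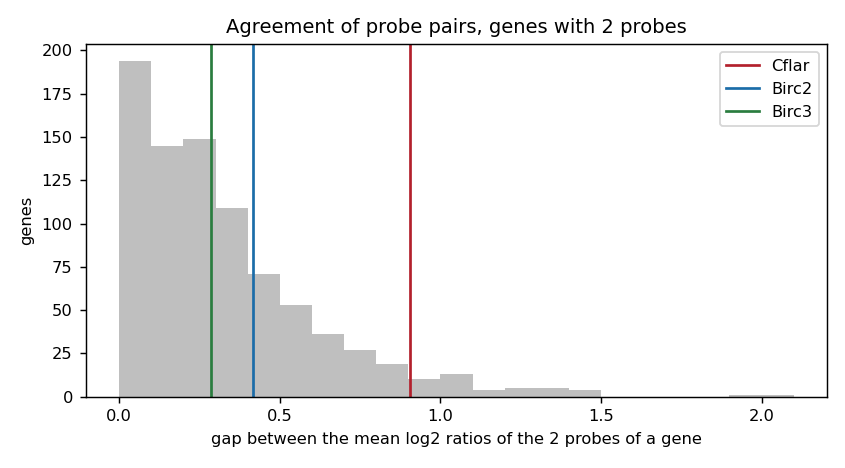
Histogram of the distance between the mean log2 ratios of the 2 probes of a gene (x axis) over the 846 genes with 2 probes (y axis, number of genes). Vertical lines mark Cflar at 0.905, Birc2 at 0.415 and Birc3 at 0.285.

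Xiap was the inhibitor farthest on the negative side. Its product is the IAP that blocks effector caspases by direct binding. The probe (NM_009688) read -0.77 and -0.26 on arrays 1 and 2, for a mean of -0.515 ± 0.36 (SD, n = 2), and limma's interval of -1.0 to -0.03 came close to 0 (adjusted p = 0.319). Array 1 carried most of that mean.

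Birc3, the gene of cIAP2 and a known target of NF-kB, was positive with both of its probes. The probe annotated to BC011338 read 0.28 and 0.69 on arrays 1 and 2 (mean 0.485 ± 0.29, SD, n = 2, limma adjusted p = 0.311). The NM_007464 probe read 0.24 and 0.16 (mean 0.20 ± 0.06, SD, n = 2), and its limma interval of -0.17 to 0.57 held 0. Birc2, the gene of cIAP1, was less settled. Its AK021182 probe read 0.53 and 0.38 (mean 0.455 ± 0.11, SD, n = 2, limma adjusted p = 0.285), whereas the NM_007465 probe stayed near 0 with 0.14 and -0.06. The distance between probe means was 0.415 for Birc2 and 0.285 for Birc3, and 28.8% and 45.0% of genes with 2 probes had one at least as wide. Birc2 and Birc3 are close relatives next to each other on chromosome 9, each listed under the other's name among its synonyms in the RefSeq table, and cross-hybridisation of their probes was not tested. As gene means they differed little, with Birc3 minus Birc2 at -0.075 and 0.265 on arrays 1 and 2. Set against Xiap, Birc3 was higher by 1.03 and 0.685 and Birc2 by 1.105 and 0.42, which follows from their signs. As gene means, Birc2 and Birc3 lay above 0 and Xiap below 0 on each array, though 1 Birc2 probe read -0.06 on array 2.

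The gap between arrays was ordinary for the members, with a median of 0.26 over the 11 probes against 0.24 over all probes. It ran between 0.03 for Casp6 and 0.96 for the NM_009805 probe of Cflar. Array by array, 5 of 8 member genes were positive on array 1 and 6 of 8 on array 2, the sign of the Cflar mean being the one that differed. By likeness to Casp4 over the 2 arrays, the nearest single-probe genes were Mef2d (0.93 and 0.66), Cysltr2 (0.88 and 0.67) and Vwa1 (0.92 and 0.62), at Euclidean distances of 0.01, 0.05 and 0.051 on the log2 scale.

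Caspases outside the 8 genes lay near 0. There were 4 with a named probe and both values. The 8 members were listed with earlier results of these data known, so no contrast between them and these 4 is drawn. The initiator gene of the mitochondrial route, Casp9, read -0.09 and -0.22 on arrays 1 and 2. Casp2, a caspase of the stress response, changed sign with -0.15 and 0.43, and Casp14, a caspase of skin differentiation, read 0.30 and 0.05. Their median with Casp12 was 0.02 (0.00 on array 1 and -0.085 on array 2). Of these 4 probes none was past an unadjusted p of 0.05 in limma.

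Other genes with BIR domains were measured for 5 of 7 listed. Against shares of 29.6% and 33.6% among all genes, both arrays put 2 of the 5 above 0 and 3 below it. Birc5, the gene of survivin, which acts in chromosome segregation, was the only one at least 2-fold, with -1.16 and -1.13. Naip2, a sensor of bacterial secretion proteins, read -0.89 and -0.63, while its relatives Naip5 (0.12 and 0.04) and Naip6 (-0.07 and -0.13) stayed near 0. Birc6, a very large ubiquitin-conjugating IAP, read 0.24 and 0.31. The list median was -0.10, and 0 of the 5 probes passed limma's adjusted test.

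Partners upstream of the members were mixed. The side counts of these and the later lists stand beside 29.6% of all genes above 0 and 33.6% below it on both arrays. In the death receptor complex, both arrays put 2 of 10 genes above 0 and 3 below it, and the median was -0.03. The receptor gene Fas read 0.79 and 1.11 and Daxx, a protein named for binding it, 0.80 and 0.70, both named after their values were seen. Fasl, the ligand, was at -1.06 and -1.49, and the adaptor gene Fadd, which brings caspase-8 to the receptor, at -0.13 and -0.16. So the receptor and the ligand were on opposite sides, and the adaptor near 0. Genes of the apoptosome and of mitochondrial release had a median of -0.29 (-0.19 on array 1 and -0.38 on array 2), and both arrays put 1 of 7 above 0 and 4 below it. Cycs, the gene of cytochrome c, read -0.41 and -1.21 and Aifm1, a flavoprotein of the mitochondria, -0.29 and -0.83.

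IAP antagonists and cIAP partners were positive on both arrays for 2 of 9 genes and negative for 4, with a median of -0.225. Ripk3, a kinase of necroptosis, read -0.54 and -0.47, and Mlkl, the pore protein it activates, -0.31 and -0.53. For inflammasome and pyroptosis genes the median was 0.155, but it was -0.23 on array 1 and 0.40 on array 2, and 2 of 9 genes were above 0 and 3 below it on both. Gbp2, an interferon-induced GTPase that aids caspase-11 activation in mouse cells, read -0.36 and 2.10, and Il18, a cytokine cut by caspase-1, 0.11 and 0.71. The list median therefore changed side between the arrays. NF-kB subunits and inhibitors had a median of 0.11 (-0.01 on array 1 and 0.115 on array 2), with 6 of 12 positive and 3 negative on both. Ikbkb, a kinase that activates NF-kB, read 0.46 and 0.61, and Nfkbia, the gene of its inhibitor, -0.07 and -1.04.

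Caspase substrates, a list written with earlier results of these data known, leaned to the negative side. Both arrays put 11 of 21 genes below 0 and 2 above it, beside 33.6% and 29.6% of all genes. The list median was -0.22 (-0.13 on array 1 and -0.25 on array 2). Lmnb1, a nuclear lamin, read -1.45 and -1.70 and Vim, the intermediate filament vimentin, -1.16 and -1.23. Across these 6 lists limma's adjusted test passed 0 probes. By limma's unadjusted p under 0.05, 5 of 21 substrate probes were negative and 2 positive, beside 8.0% and 6.87% of all probes. The same count gave 3 of 7 apoptosome probes and 2 of 10 probes of IAP antagonists and cIAP partners, all negative. It gave 1 negative and 2 positive of 11 death receptor probes, 1 positive of 12 NF-kB probes and 0 of 9 inflammasome probes.

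**Figure D4:**
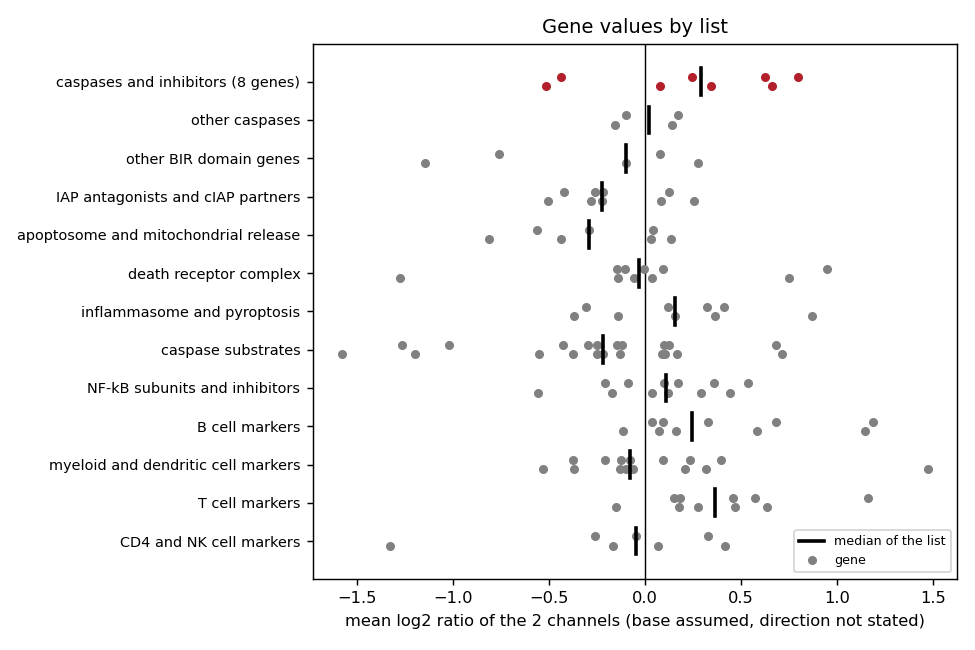
Mean log2 ratio over 2 arrays (x axis) of each gene in each list (rows), with the list's median as a black bar. The 8 members (top row) spread between -0.515 for Xiap and 0.80 for Casp4 around a median of 0.295, and the caspase substrates reach -1.575.

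Markers of other cell types were set beside these values, since Casp1 and Casp4 are also abundant in myeloid cells. Both arrays put 4 of 15 myeloid and dendritic cell markers above 0 and 5 below it, beside 29.6% and 33.6% of all genes. The median of these markers was -0.075. Among them Ctss, a lysosomal protease also found in B cells, read 1.10 and 1.85. Of the 5 below 0, named after their values were seen, Tyrobp read -0.18 and -0.88 and Cd14 -0.55 and -0.20. Itgax read -0.71 and -0.03, and Itgam -0.04 and -0.37. B cell markers were positive on both arrays for 7 of 10 genes and negative for 1. Their median was 0.2475 (0.085 on array 1 and 0.485 on array 2), led by Cd74 (0.06 and 2.32) and Cd79b (0.67 and 1.62). Other B cell markers, named after their values were seen, lay nearer 0. Pax5 read 0.21 and -0.06, Ebf1 -0.04 and -0.19 and Ms4a1 0.11 and 0.08. Cd22 and Fcer2a counted as positive with 0.01 on array 1. T cell markers leaned to the positive side, as 8 of 10 genes were above 0 and 0 below it on both arrays. Their median was 0.3675 (0.16 on array 1 and 0.435 on array 2). Cd5 read 0.64 and 1.68 and the mean of the Cd8a probes 0.37 and 0.90. CD4 and NK cell markers had a median of -0.045 over 7 genes, of which both arrays put 2 above 0 and 3 below it. The NK receptor gene Klrb1c read -0.77 and -1.88, and Klrk1, which activated CD8+ T cells also express, 0.46 and 0.37. The part of any of these cells in the ratios of the members was not tested.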

How the data were processed

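The deposited table holds 1 signed value per probe and array for 21919 probes, used as log2 ratios of the 2 channels, and 21427 probes had both values. The sources used here do not state how the authors made these log2 values (scanner, background correction, normalization, filters). No spot intensity was used, which leaves signal strength unknown, and precision is limited by the number of arrays. Both arrays were centred near 0, so a shift of all genes would not be seen.

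The platform's annotation table supplied gene names. limma 3.58.1 in R 4.3.3 fitted the mean of the 2 arrays against 0 (two-sided), with moderated variances (1 residual and 3.43 prior degrees of freedom) and Benjamini-Hochberg adjustment over all 21427 probes at 0.05. The median half-width of the 95% confidence intervals was 0.396. The fit was also run on simulated data drawn from its own fitted spread, which cannot show how well that spread describes these arrays. Across probes the arrays correlated with Pearson's r = 0.494, as a description.

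The members, the 12 lists and the tests were chosen with earlier results of these data known. Named genes were every member probe, all measured other caspases and BIR genes, in each list the genes at least 2-fold on both arrays or otherwise the 2 farthest from 0, and the 3 genes nearest to Casp4; other names are marked as chosen after their values were seen or given as context (Fadd). Alternatives were other normalizations, priors, thresholds and gene summaries, and leaving out each array.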

Additional observations from a re-analysis of the deposited data

How the results depend on the processing

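All 44 alternative values of the 11 member probes under a robust prior, no moderation, median centring and quantile normalization kept their sign, with limma adjusted p-values between 0.126 and 0.949, and 0 member probes were called under any of them. Without moderation, probes with identical values on both arrays had no test. limma called 0 of all probes in each of these fits, with probes of a single value kept, and with 1 value per gene. The counts of 5 positive and 2 negative members held under both normalizations. With the probe farthest from 0 in place of the mean, Cflar joined the positive side, for 6 positive and 2 negative. No probe with several symbols named a member. The median of the member genes was 0.455 over all 11 probes, which weights genes by their probes, and 0.297 to 0.398 on single arrays. On the sign of single members, leaving out array 1 turned 1 Birc2 probe to -0.06. Over the whole table, both arrays reached 2-fold for 183 probes, 1.5-fold for 880 and 3-fold for 26. On single arrays 453 to 1003 were 2-fold. Read as natural logs, which was tried after seeing the data, both arrays reached it for 577. The NF-kB, inflammasome, and CD4 and NK cell lists changed the sign of their median between arrays, and that of the other caspases, 0.02 over both arrays, was -0.085 on array 2. The 2 stages share each array, so the fit on ratios within arrays is itself paired, and no other pairing was available.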
